A study of Homo sapiens with 6 samples.

Results

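The Wnt pathway genes described here are the secreted ligands, receptors and regulators of Wnt signaling, chosen by gene symbol alone. They comprise the WNT ligands, the Frizzled receptors, LRP5 and LRP6, the DKK and SFRP antagonists, the R-spondins with their LGR receptors, RNF43 and ZNRF3, the Dishevelled, AXIN, APC and NKD genes, CTNNB1 and the TCF/LEF factors. The rule found 54 members among the 26025 genes of the deposited table. The study asked which genes norepinephrine (NE), a neurotransmitter of the stress response, changes in NCI-H1299, a line of human non-small cell lung cancer cells. RNA-seq was performed in 2 groups of 3 libraries each. The NE group received 10 µM NE and the Ctrl group received vehicle, both for 48 h in RPMI-1640 with 2% FBS after 8 to 12 h in DMEM, a step that the methods describe as starvation. The vehicle is named DMSO in the sample titles and PBS in the treatment protocol. All libraries came from 1 cell line. Whether replicates were separate cultures is not stated, so that p-values measure the spread between libraries, which may be technical.

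Wnt ligands are lipid-modified secreted proteins that bind a Frizzled receptor together with LRP5 or LRP6. Without ligand, a complex built on AXIN and APC marks beta-catenin, the product of CTNNB1, for destruction. With ligand, Dishevelled proteins are recruited to the receptor, the complex is inhibited, and beta-catenin enters the nucleus and binds TCF/LEF factors at target genes. DKK1 blocks LRP5 and LRP6, and SFRP proteins bind the ligands themselves. In lung epithelium the pathway is known for its part in development and in the maintenance of progenitor cells.

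The deposited values were gene counts scaled by 1 size factor per library, called normalized counts below. From 16852751 to 17979206 reads lay on genes in each library. Ctrl replicate 3 stood apart, with 7305 genes at 0 reads where the other libraries had 3954 to 4833. The chi-square per degree of freedom between read counts was 2.86 for Ctrl replicates 1 and 2. Against Ctrl replicate 3 it was 49.5 and 45.4, and between NE libraries it ran from 5.37 to 24.3. The 3 Ctrl libraries were thus not equally far apart, and the reason was not tested. The cell line's markers VIM, KRT8 and KRT18 were abundant, with Ctrl means of 66719, 12452 and 22472 normalized counts. PECAM1, an endothelial marker, had 26.7 and ALB, a hepatocyte marker, had 0. In bulk RNA a change in RNA per cell and a change in the share of cells cannot be told apart.

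In NE-treated cells the 2 most abundant secreted antagonists, DKK1 and SFRP1, rose more than 4-fold. By the rule given below, 6 of the 9 tested WNT ligands fell (66.7%, against 6.55% of all tested genes). Of these, WNT7A and WNT10B reached the minimum for testing only through their Ctrl libraries. With the minimum in both groups, 4 of 7 ligands fell (57.1%, against 6.46% of all such genes). After the correction for GC content, 2 of these 7 did (28.6%, against 2.58%). NKD2, which binds and restrains Dishevelled, rose as well, together with APC, LGR4 and TCF7L2. DVL1, the Dishevelled gene with the highest level, fell. Of the 54 members, 38 had a mean of at least 10 normalized counts and were tested with limma on log2(value + 1). Called genes had a Benjamini-Hochberg adjusted p under 0.05 over all 15013 tested genes and differed by 1 or more on the log2 scale. By this rule 13 of the 38 were called (34.2%, against 14.0% of all tested genes). Of these, 6 were higher with NE (15.8%), where 7.47% of all tested genes were. Another 7 were lower (18.4%), against 6.55% of all tested genes. Among genes with a mean of at least 10 in both groups, a recount chosen after seeing the data, 5 of 36 members were lower (13.9%, against 6.46% of all such genes) and 6 higher (16.7%, against 6.91%). After a correction for GC content, described below, 7 of the 13 were still called. APC, LGR4, TCF7L2, DVL1, WNT9A and WNT10A were not. All 13 were called in each of the 6 leave-one-out fits, the one without Ctrl replicate 3 included. The 3 NE values all lay above the 3 Ctrl values for 12 of the 38 members (31.6%, against 29.7% of all tested genes) and below for 14 (36.8%, against 28.9%). The median log2 fold change of the tested members was -0.19, beside 0.01 for all tested genes, and after the correction for GC content the signs turned, to 0.04 and -0.04. An exact permutation test of a single gene cannot give a p under 0.1 with 3 libraries against 3.

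**Figure D1:**
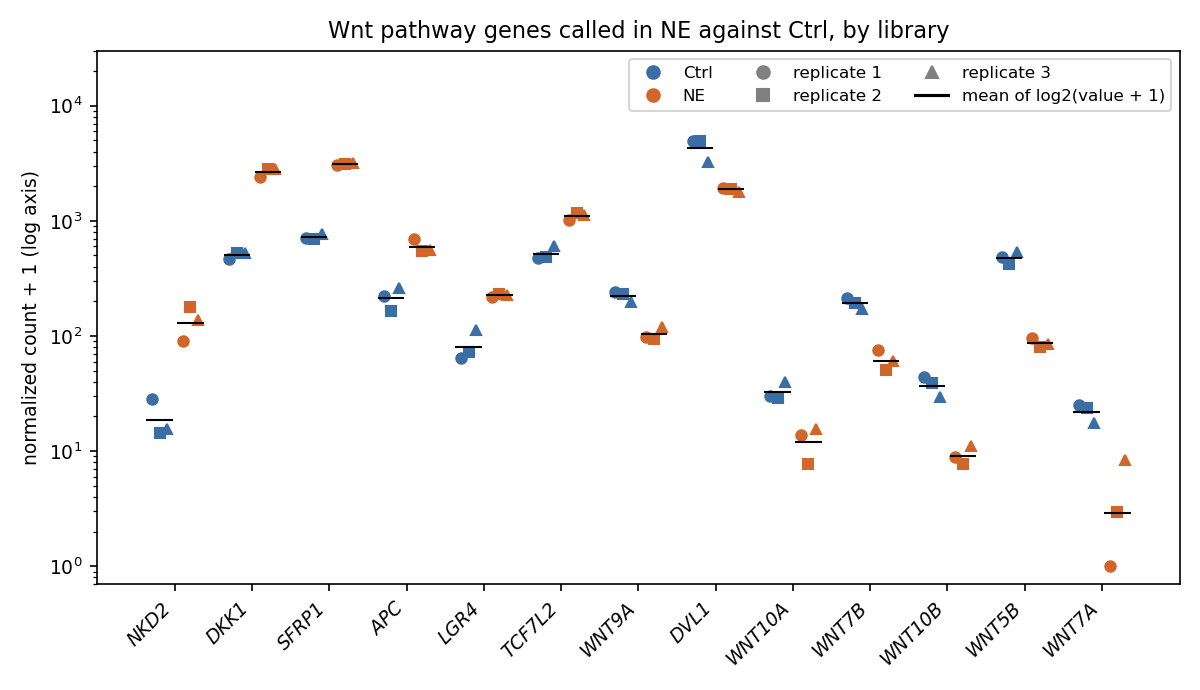
Normalized count plus 1 (log axis) in each library for the 13 called Wnt pathway genes, ordered from the largest rise to the largest fall; colors mark the group, symbols the replicate, and bars the mean of log2(value + 1). For each gene the 3 NE libraries lie entirely on one side of the 3 Ctrl libraries, and Ctrl replicate 3 of DVL1 lies closest to the NE libraries among its group.

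Promoter windows are given for the called members whose window held a match to a motif of the cAMP or Wnt pathway, and were thus picked by the match and not by the size of the change. Each window holds the 250 bases before the RefSeq gene start on GRCh38.p14, 5′ to 3′ on the strand of the gene, with motif matches in capitals. The motifs were the cAMP response element TGACGTCA, its half-site TGACG, and the TCF/LEF letters CTTTGAT and CTTTGAA, searched on both strands; the half-site is part of the full element. DKK1 lies on the plus strand at chr10:52314031-52314280, WNT5B on the plus strand at chr12:1616806-1617055, DVL1 on the minus strand at chr1:1349419-1349668 and TCF7L2 on the plus strand at chr10:112949997-112950246. The RefSeq start of WNT5B lies inside the gene as annotated by GENCODE v44, which begins at 1529891.
DKK1: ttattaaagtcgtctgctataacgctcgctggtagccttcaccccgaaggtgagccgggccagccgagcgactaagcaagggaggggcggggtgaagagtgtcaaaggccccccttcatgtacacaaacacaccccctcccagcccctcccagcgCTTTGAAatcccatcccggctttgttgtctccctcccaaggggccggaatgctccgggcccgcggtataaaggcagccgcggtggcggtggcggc
WNT5B: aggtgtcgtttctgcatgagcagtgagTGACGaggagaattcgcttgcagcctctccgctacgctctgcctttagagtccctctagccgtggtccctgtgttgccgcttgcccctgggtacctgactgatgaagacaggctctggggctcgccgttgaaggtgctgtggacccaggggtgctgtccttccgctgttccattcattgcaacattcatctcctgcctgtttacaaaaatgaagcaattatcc
DVL1: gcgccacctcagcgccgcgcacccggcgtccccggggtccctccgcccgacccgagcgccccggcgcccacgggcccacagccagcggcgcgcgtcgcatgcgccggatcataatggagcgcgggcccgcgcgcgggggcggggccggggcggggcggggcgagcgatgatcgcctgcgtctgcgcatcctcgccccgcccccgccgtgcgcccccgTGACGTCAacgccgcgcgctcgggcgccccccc
TCF7L2: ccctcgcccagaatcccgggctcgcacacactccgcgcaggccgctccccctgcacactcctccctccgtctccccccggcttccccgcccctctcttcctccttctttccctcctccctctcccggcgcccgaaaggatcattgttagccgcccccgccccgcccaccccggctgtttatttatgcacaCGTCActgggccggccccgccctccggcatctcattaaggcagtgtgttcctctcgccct
The window of DKK1 held CTTTGAA at -95 to -89 from the gene start, and that of DVL1 the full cAMP response element at -33 to -26. WNT5B and TCF7L2 each held 1 half-site, at -223 to -219 and, on the opposite strand and so printed as CGTCA, at -60 to -56. Windows could be matched for 38 of the 54 members, including 10 of the 13 called, among them WNT7A and NKD2, whose windows held none of these motifs. The full element was found in 1 of these 38 and in 1.65% of 35116 windows of all genes, and the half-site in 7 of the 38 and in 21.2% of all. CTTTGAA was found in 1 of the 38 and in 3.8% of all windows, and CTTTGAT in 0 of the 38 and in 2.26%. A match is a description of letters and not of binding.

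Among the secreted antagonists, DKK1 (ENSG00000107984, chr10:52314281-52318042) had 468.1, 526.8 and 528.2 normalized counts in Ctrl replicates 1 to 3. In NE replicates 1 to 3 it had 2397, 2840 and 2815. The groups were far apart, with means of 507.7 ± 34.3 and 2684 ± 249 (SD, n = 3), a 5.29-fold difference. Its log2 fold change was 2.40 (standard error, SE, 0.116, limma adjusted p = 3.83e-06). SFRP1 (ENSG00000104332), on chromosome 8, had 702.7, 697.9 and 769.3 normalized counts in Ctrl and 3036, 3096 and 3195 in NE libraries. Its log2 fold change of 2.10 (SE 0.099, limma adjusted p = 3.54e-06) corresponds to 4.30-fold between the means, and no NE library came near the Ctrl range. Per length, DKK1 had 12.7 ± 0.995 FPKM in Ctrl and 74.0 ± 9.54 in NE-treated cells (SD, n = 3). SFRP1 had 8.49 ± 0.636 and 40.1 ± 2.72 FPKM (SD, n = 3). The third measured antagonist of this level, DKK3, a divergent member of the DKK family, did not pass the test, with a log2 fold change of -0.23 (adjusted p = 0.0981) and 5.61 and 5.27 FPKM. On the FPKM scale DKK1 and SFRP1 were thus above DKK3 in both groups, and by more with NE. DKK1 shares 227 exon bases (10.2%) with PRKG1-AS1 and DKK3 shares 5681 (47.5%) with USP47, both on the opposite strand. No source used here states that reads were counted by strand, so those reads cannot be told apart. PRKG1-AS1 had a mean of only 17.3 normalized counts.

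The 6 WNT ligands that passed the test were all lower with NE. WNT5B, a ligand known mainly for signaling without beta-catenin, had the highest ligand level in Ctrl and fell from 480.7, 416.9 and 533.1 normalized counts to 95.9, 79.4 and 84.1. This was a log2 fold change of -2.45 (SE 0.159, limma adjusted p = 2.13e-05), and the means differed 5.52-fold. WNT7B, a ligand known from lung development, had 211.5, 192.9 and 170.5 normalized counts in Ctrl and 74.1, 49.4 and 59.4 in NE libraries. Its log2 fold change was -1.65 (SE 0.205, limma adjusted p = 0.000337). WNT9A had 241.9, 229.2 and 197.9 in Ctrl and 96.8, 93.0 and 119.7 in NE libraries, a log2 fold change of -1.11 (adjusted p = 0.000928). For all 3 ligands every NE library was below every Ctrl library. The other 3 ligands that fell had low counts. WNT10B had 42.9, 38.4 and 28.4 normalized counts in Ctrl and 7.91, 6.78 and 10.1 in NE libraries (log2 fold change -2.02, adjusted p = 0.0023). WNT10A had 29.3, 28.0 and 39.2 in Ctrl and 12.8, 6.78 and 14.6 in NE libraries (log2 fold change -1.46, adjusted p = 0.0146). WNT7A had 24.1, 22.8 and 16.7 in Ctrl and 0, 1.94 and 7.31 in NE libraries. Its log2 fold change of -2.92 (SE 0.796, adjusted p = 0.0136) depends on the pseudocount, and ran from -4.20 to -1.79 over the alternatives. After the correction for GC content WNT9A (-0.55) and WNT10A (-0.85, adjusted p = 0.169) were no longer called.

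The 3 remaining tested ligands did not pass the test. WNT3, a ligand known to act through beta-catenin, had a log2 fold change of -0.31 (SE 0.252, adjusted p = 0.333), WNT16 of -0.26 (SE 0.226, adjusted p = 0.355) and WNT2B of 0.58 (SE 0.414, adjusted p = 0.27). WNT2B, with a mean of 24.6 normalized counts, shares 2665 exon bases (21.5%) with ST7L on the opposite strand. ST7L had a mean of 162.3, and reads on the shared bases cannot be told apart. On the FPKM scale the order of the ligand means differed between the groups. In Ctrl it ran from WNT5B (6.25 ± 0.871) to WNT9A (3.09 ± 0.261), WNT3 (2.14 ± 0.246) and WNT7B (2.09 ± 0.192; SD, n = 3), of which WNT3 and WNT7B lay within their spread. With NE, WNT3 (1.99 ± 0.698), WNT9A (1.58 ± 0.279), WNT5B (1.24 ± 0.0878) and WNT16 (1.12 ± 0.185; SD, n = 3) came first. The libraries of WNT3 overlapped with those of WNT9A, and those of WNT5B with those of WNT16, while WNT9A lay above WNT5B in all 3 NE libraries. WNT5B made up 33.6% to 42.2% of the summed FPKM of the 15 listed ligands in the Ctrl libraries and 14.6% to 20.4% in the NE libraries.

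**Figure D2:**
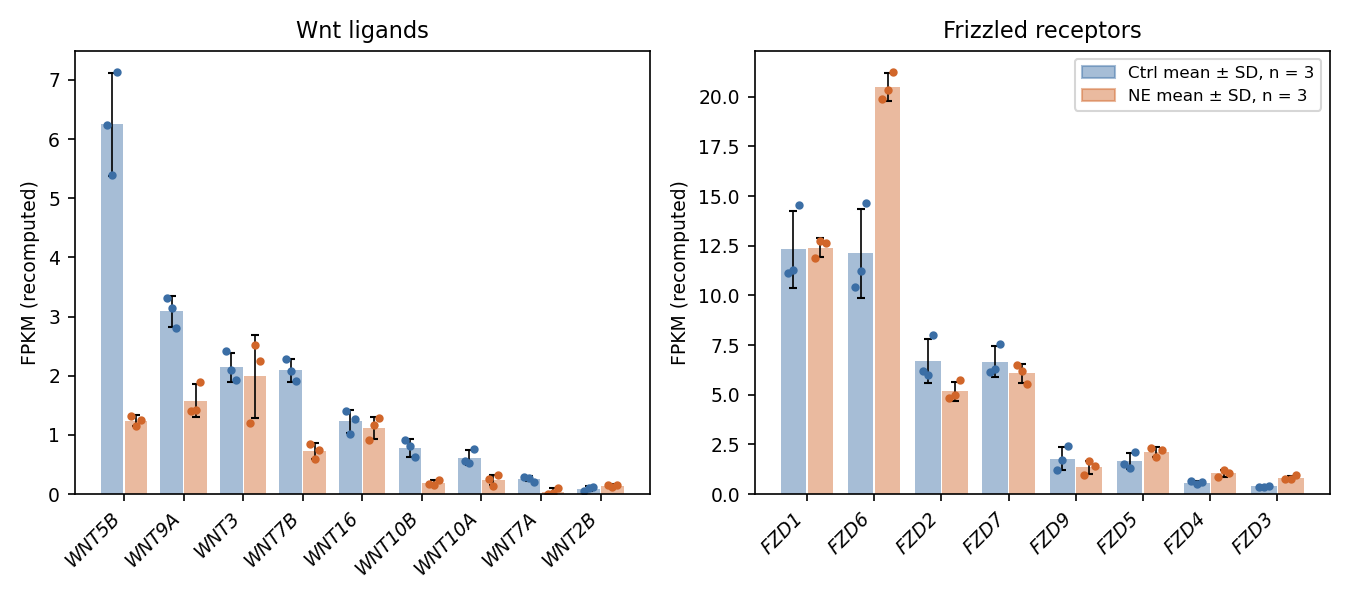
FPKM recomputed from whole reads and exon length for the tested WNT ligands (left) and Frizzled receptors (right); bars are means, error bars SD (n = 3) and points single libraries. WNT5B leads the ligands in Ctrl at 6.25 FPKM and has 1.24 FPKM with NE, whereas among the receptors FZD6 goes from 12.1 to 20.5 FPKM and FZD1 is at 12.3 and 12.4.

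None of the 8 tested Frizzled receptors met the fold criterion, and 4 passed the adjusted p alone. By the adjusted p alone, 50.1% of all tested genes passed, 24.6% higher and 25.5% lower, and 24 members did (63.2%), 12 higher and 12 lower (31.6% each). After the correction for GC content described below, none of the 8 receptors passed. FZD3, a receptor known from axon guidance, had 91.1, 95.4 and 102.9 normalized counts in Ctrl and 175.9, 168.5 and 205.6 in NE libraries (log2 fold change 0.92, adjusted p = 0.00187). FZD6 had 769.7, 833.7 and 1050.5 in Ctrl and 1384, 1350.1 and 1359 in NE libraries (0.64, adjusted p = 0.00358), so that Ctrl replicate 3 lay between its group and NE. FZD4, the receptor of norrin as well as of Wnt ligands, had 86.9, 67.4 and 77.4 in Ctrl and 106.7, 146.2 and 123.4 in NE libraries (0.69, adjusted p = 0.0183). It shares 1399 exon bases (18.9%) with PRSS23 on the opposite strand, which had a mean of 2130 normalized counts. FZD2 was lower, with 425.2, 411.7 and 532.1 in Ctrl and 312.3, 307.0 and 339.9 in NE libraries (-0.50, adjusted p = 0.0155). FZD1, FZD5, FZD7 and FZD9 did not pass, at -0.12, 0.25, -0.27 and -0.51. The adjusted p of FZD2 and FZD4 was under 0.05 in 4 and 3 of the 6 leave-one-out fits.

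LRP6, the coreceptor that DKK1 binds, had 495.3, 505.0 and 608.5 normalized counts in Ctrl and 1054, 1003 and 938.5 in NE libraries. All NE libraries were higher, with a log2 fold change of 0.90 (SE 0.124, adjusted p = 0.000536), under the fold criterion. LRP5 did not pass, at -0.31 (SE 0.134, adjusted p = 0.0779). LGR4, a receptor of the R-spondins, rose from 62.8, 71.6 and 111.7 normalized counts in Ctrl to 216.4, 231.5 and 225.7 with NE (log2 fold change 1.49, SE 0.223, adjusted p = 0.000783). ZNRF3, a ubiquitin ligase that removes Frizzled receptors from the membrane, had 131.9, 146.2 and 120.5 in Ctrl and 215.4, 181.1 and 159.9 in NE libraries. Its log2 fold change was 0.47 (adjusted p = 0.0471), with an adjusted p under 0.05 in 1 of the 6 leave-one-out fits. Among the R-spondins, which amplify Wnt signals through LGR receptors, RSPO4 had 54.5, 61.2 and 100.9 in Ctrl and 38.5, 31.0 and 33.8 in NE libraries. Its log2 fold change of -0.999 (SE 0.288, adjusted p = 0.0174) fell just short of the criterion, and it was called in 3 of the 6 leave-one-out fits. RSPO2 did not pass, at 0.22 (adjusted p = 0.671).

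Inside the cell, NKD2 (ENSG00000145506, chr5:1008802-1038943) had the largest rise of the members, from 27.2, 13.5 and 14.7 normalized counts in Ctrl to 88.9, 176.3 and 138.0 with NE. The log2 fold change was 2.81 (SE 0.352, limma adjusted p = 0.000356) and the means differed 7.28-fold, although the NE libraries spread 43.8 (SD) around a mean of 134.4. APC, the scaffold of the destruction complex, rose from 222.0, 164.9 and 258.7 to 699.6, 547.2 and 551.9 (1.49, SE 0.187, adjusted p = 0.000361). AXIN1, the other scaffold, was lower, with 979.1, 921.9 and 755.5 normalized counts in Ctrl and 627.5, 575.3 and 580.3 in NE libraries (-0.57, adjusted p = 0.00583). AXIN2, a scaffold that is itself a common target of beta-catenin, had 70.2, 43.6 and 34.3 in Ctrl and 38.5, 32.0 and 63.1 in NE libraries. The groups overlapped and the test did not separate them (-0.14, SE 0.354, adjusted p = 0.762). CTNNB1 had 4149, 4492 and 5569 normalized counts in Ctrl and 7900.2, 6633 and 6107 in NE libraries (0.54, adjusted p = 0.0106), with Ctrl replicate 3 closest to the NE libraries. After the correction for GC content APC (0.94) was under the fold criterion, and neither CTNNB1 (0.02, adjusted p = 0.901) nor AXIN1 (0.06, adjusted p = 0.671) passed the test.

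Of the 3 Dishevelled genes, which relay the signal from the receptor, 1 was called and 1 more passed the adjusted p. DVL1 (ENSG00000107404, chr1:1335276-1349418) fell from 4946, 4932 and 3245 normalized counts to 1944, 1901 and 1789, a log2 fold change of -1.19 (SE 0.161, limma adjusted p = 0.000489). DVL2 had 1354, 1325 and 848.6 in Ctrl and 703.6, 750.6 and 686.3 in NE libraries (-0.69, adjusted p = 0.0103). DVL3 had 2308, 2214 and 2111 in Ctrl and 2124, 1965 and 1876 in NE libraries, overlapping (-0.15, adjusted p = 0.226). In both DVL1 and DVL2 the value of Ctrl replicate 3 lay between the other Ctrl libraries and NE. After the correction for GC content described below, DVL1 (-0.54, limma adjusted p = 0.00134) was under the fold criterion. DVL2 (-0.15, adjusted p = 0.301) no longer passed the test, and DVL3 (0.32, adjusted p = 0.0373) passed it with the opposite sign. Per length, DVL1 had 62.4 ± 12.9 FPKM in Ctrl and 29.5 ± 0.424 with NE (SD, n = 3). It made up 62.8% to 67.9% of the summed FPKM of the 3 genes in Ctrl libraries and 51.6% to 52.0% in NE libraries.

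Of the nuclear factors that bind beta-catenin, TCF7L2 (ENSG00000148737, chr10:112950247-113167678) rose from 474.4, 484.3 and 601.7 normalized counts to 1026, 1171 and 1116. The log2 fold change was 1.09 (SE 0.130, limma adjusted p = 0.000288). TCF7 was lower, with 1239, 1212 and 793.8 in Ctrl and 556.3, 537.5 and 557.4 in NE libraries (-0.94, adjusted p = 0.00192), and was called only without Ctrl replicate 3 (-1.15). TCF7 shares 210 exon bases (2.08%) with the abundant SKP1 gene on the opposite strand. LEF1 had 274.4, 239.5 and 235.2 in Ctrl and 231.2, 219.9 and 268.7 in NE libraries and did not pass (-0.06, adjusted p = 0.758). TCF7L1 did not pass either (-0.47, adjusted p = 0.36). On the FPKM scale TCF7 led in Ctrl at 5.93 ± 1.27, followed by TCF7L2 at 4.29 ± 0.672 (SD, n = 3). In Ctrl replicate 3 TCF7L2 was already the higher, at 5.07 against 4.46 FPKM. With NE the order was the reverse in all 3 libraries, with TCF7L2 at 10.0 ± 0.981 and TCF7 at 3.33 ± 0.157 (SD, n = 3).

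**Figure D3:**
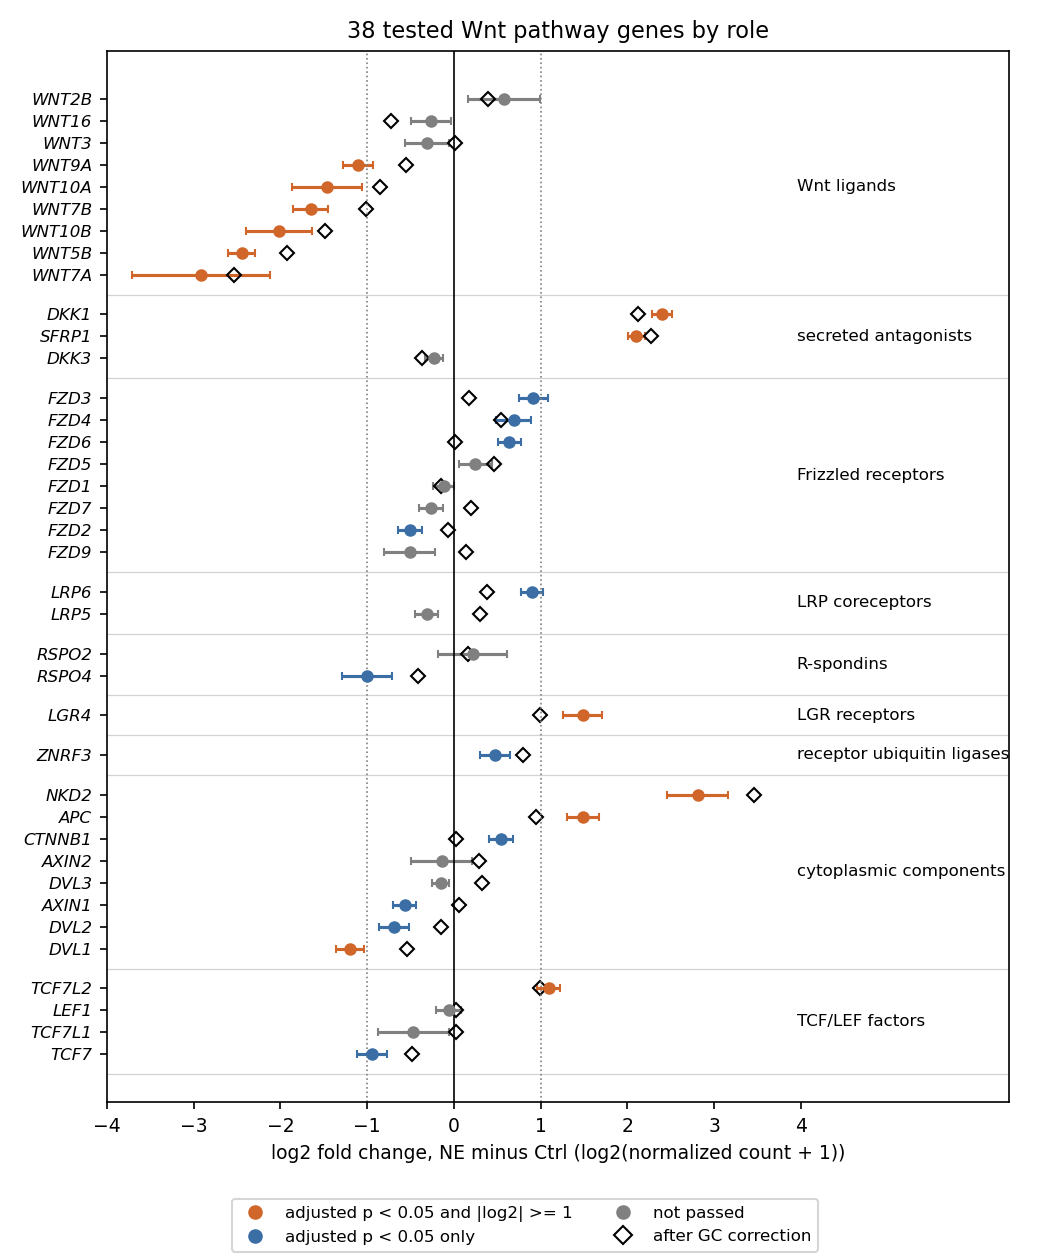
Log2 fold change (NE minus Ctrl) with its standard error for the 38 tested members, grouped by role; filled circles are colored by the test result and open diamonds give the value after correction for GC content. The called ligands lie on the left, from -2.92 for WNT7A to -1.11 for WNT9A, DKK1 and SFRP1 lie above 2 on the right with either value, and most receptors lie between -1 and 1.

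The fold changes moved with the GC content of the exons, as they did over all genes. The Spearman correlation between log2 fold change and exon GC content was -0.686 over the 38 tested members and -0.644 over 14955 tested genes, which share the same 6 libraries and are not independent. Members called higher had a median exon GC content of 45.7% and members called lower one of 59.7%. After a correction that took out this trend in every library, 7 members were called (18.4%, against 6.09% of all genes), 3 higher and 4 lower, where 3.43% and 2.66% of all genes were. These 7 were DKK1 (2.12), SFRP1 (2.27), NKD2 (3.46), WNT5B (-1.92), WNT7A (-2.53), WNT10B (-1.48) and WNT7B (-1.01). NKD2 has 67.3% GC in its exons and rose, where genes of such GC content were lower in their median. LGR4 (0.996), TCF7L2 (0.99), APC (0.94), WNT9A (-0.55) and DVL1 (-0.54) kept an adjusted p under 0.05 but not the fold criterion, and WNT10A kept neither (-0.85, adjusted p = 0.169). Leaving out WNT7A and WNT10B by the minimum in both groups, 3 members were higher (8.33%, against 2.98% of such genes) and 2 lower (5.56%, against 2.58%) after the correction. Of the 11 members that had passed the adjusted p alone, 8 no longer did, among them CTNNB1, AXIN1, FZD6 (0.01, adjusted p = 0.944), FZD3 (0.17, adjusted p = 0.488) and DVL2 (-0.15, adjusted p = 0.301). LRP6 (0.38), TCF7 (-0.48) and ZNRF3 (0.80) still passed it, while WNT16 (-0.72), DKK3 (-0.37) and DVL3 (0.32) passed it only then. By the adjusted p alone 18 members then passed, 9 in each direction, where 32.0% of all genes did, 13.0% higher and 19.0% lower. The correction turned the sign of 9 members from negative to positive, namely LRP5 (0.30), FZD7 (0.19), FZD9 (0.14), TCF7L1 (0.03), WNT3 (0.01), LEF1 (0.02), AXIN1, AXIN2 (0.29) and DVL3. Trends on GC content also stood between Ctrl replicate 3 and Ctrl replicate 1, at -0.519 (Spearman) without any NE, and their part in the results beyond this correction was not tested.

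**Figure D4:**
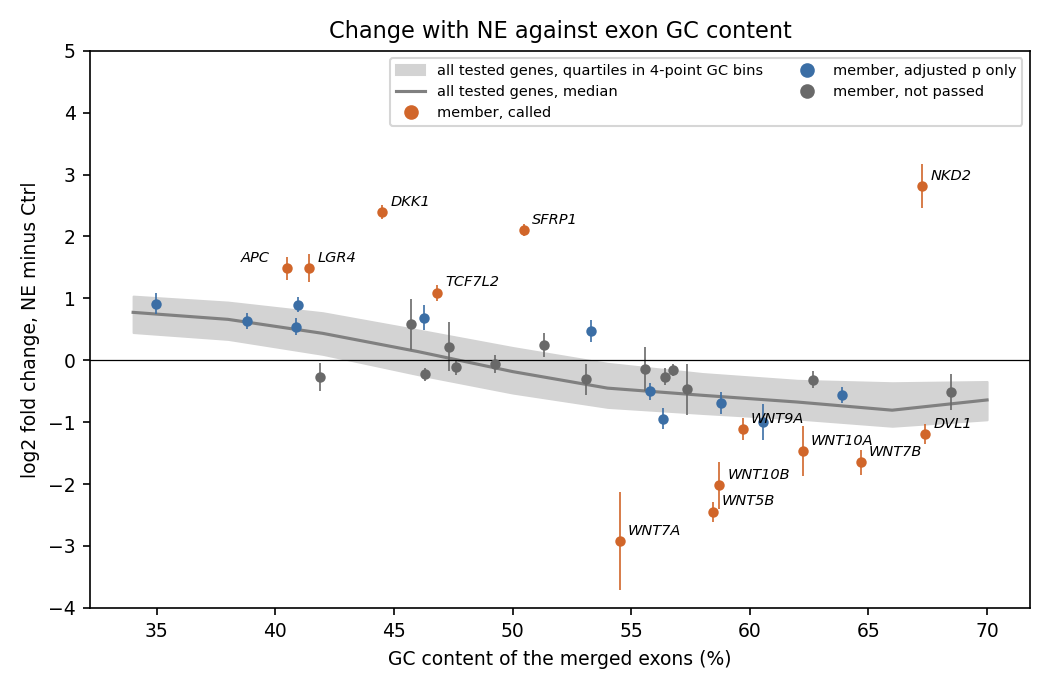
Log2 fold change (NE minus Ctrl) with its standard error against the GC content of the merged exons for the 38 tested members, over the median (grey line) and quartiles (grey band) of all tested genes in bins of GC content. Both the members and all genes go down to the right, while NKD2 at 67.3% GC, DKK1 at 44.5% and SFRP1 at 50.5% lie far above the band and WNT5B at 58.5% far below it.

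The remaining 16 members had a mean under 10 normalized counts and were not tested in the main fit, with 0 to 22 reads in any library. RSPO3, an R-spondin, had 0, 3 and 0 reads in Ctrl libraries and 14, 17 and 13 in NE libraries, and WNT6 had 4, 13 and 4 reads in Ctrl and 0, 1 and 0 in NE libraries. LGR5, a stem cell marker in intestine, had 0 reads in every Ctrl library and 6, 2 and 2 in NE libraries. SFRP2, SFRP4, WNT8B and RNF43 were also at 0 in all Ctrl libraries, with 8, 9, 11 and 2 reads in all NE libraries together. A count of 0 allows up to 3 reads per library, so that presence in Ctrl cells is not decided at this depth. WNT5A, the closest relative of WNT5B, had 1 read in the Ctrl libraries together and 10 in NE libraries. WNT4 had 22, 11 and 2 reads in Ctrl and 4, 9 and 3 in NE libraries, which overlap. FZD8 had 7 reads in Ctrl and 23 in NE libraries, WNT11 had 4 and 15, NKD1 had 10 and 16, LGR6 had 11 and 4, RSPO1 had 6 and 1, DKK2 had 27 and 24, and WNT3A had 1 and 1.

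Other genes of the pathway were taken from 5 lists written from general knowledge, but with earlier results of these data known. The lists held 84 genes, of which 64 were tested. Of these, 4 were called higher (6.25%) and 7 lower (10.9%), against 7.47% and 6.55% of all genes. Among genes for secretion and extracellular regulation, 0 of 8 were higher and 1 lower, DRAXIN (-1.91, adjusted p = 0.000763), a secreted axon guidance protein and Wnt inhibitor. DRAXIN had 67.0, 87.1 and 79.4 normalized counts in Ctrl and 23.7, 22.3 and 14.6 in NE libraries. Among coreceptors and planar polarity genes, 1 of 12 was higher, DAAM1 (1.48, adjusted p = 0.000629), which links Dishevelled to the actin skeleton, and 0 lower. In the destruction complex list of 16 tested genes, CXXC4, an inhibitor that binds Dishevelled (1.28, adjusted p = 0.00835), and TNKS2, a tankyrase that turns over AXIN (1.05, adjusted p = 0.00104), were higher and DACT1, which binds Dishevelled (-1.28, adjusted p = 0.00013), was lower. CXXC4 had 30.4, 37.3 and 73.5 normalized counts in Ctrl and 106.7, 110.4 and 105.1 in NE libraries, and TNKS2 was not called without Ctrl replicate 1 (0.95), Ctrl replicate 2 (0.97) or NE replicate 1 (0.95). Of 13 nuclear partners, 0 were higher and CTNNBIP1, which blocks the binding of beta-catenin to TCF factors, was lower (-1.42, adjusted p = 4.35e-05).

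Among 15 tested target genes outside the members, 1 was higher (6.67%, against 7.47% of all tested genes), ID2 (1.65, adjusted p = 0.000153). Another 4 were lower (26.7%, against 6.55% of all tested genes). FOSL1 had 14279, 14260 and 7290 normalized counts in Ctrl and 1703, 2242 and 2049 in NE libraries (-2.52, adjusted p = 0.000121). MYC had 3546, 3406 and 2640.0 in Ctrl and 1094, 1260.0 and 1364 in NE libraries (-1.36, adjusted p = 0.000165). PLAUR (-1.37, adjusted p = 9.85e-05) and CCND1 (-1.30, adjusted p = 0.000205) were lower too. These genes are known targets of other pathways as well, and AXIN2 and LEF1, also known as targets of beta-catenin, did not pass the test. CCND1 and DACT1 are named here after their values were seen. After correction for GC content ID2 was the only one of the 4 higher genes that was still called, and DAAM1 (0.89), CXXC4 (0.70) and TNKS2 (0.56) were not. Of the 7 lower genes 5 were still called, while CTNNBIP1 (-0.92) and DACT1 (-0.98) were under the fold criterion. CTHRC1 (-1.10), named after its value was seen, was called only after the correction. With the correction, 1 of the 64 tested list genes was thus called higher and 6 lower, where 3.43% and 2.66% of all tested genes were.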

How the data were processed

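RNA was sequenced from NCI-H1299 cells in 3 Ctrl and 3 NE libraries, grouped by sample title. The authors aligned paired reads to hg38 with HISAT2 2.0.5 and counted them per gene with featureCounts 1.5.0-p3. Although FPKM is the unit named in the methods, the deposited signal held counts per gene over a size factor of the library: all values (100%) were whole multiples of the value of 1 read within 0.01 reads. FPKM was recomputed from these reads and the merged exons of GENCODE v44, scaled to the reads on genes of each library. Annotation could be matched for 25813 of 26025 genes. The members and lists were chosen with earlier results of these data known.

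The main test was limma 3.58.1 (lmFit, eBayes with trend) on log2(value + 1) over 15013 genes with a mean of at least 10, with Benjamini-Hochberg adjustment over all of them. Fold changes on this scale understate those of low genes. Alternatives were pseudocounts of 0.1 and 5, no minimum or a minimum of 1, quantile normalization, edgeR 4.0.16, DESeq2 1.42.0 and voom on the whole reads, a spline on exon GC content (5 degrees of freedom per library), a replicate block, no fold criterion each library left out and, added after seeing the data, a minimum of 10 in both groups. Pipelines were tested on simulated data. Values in every library were given for called members, for up to 12 members that passed the adjusted p alone and for 10 central genes fixed by name; from the lists, up to 5 rises and 5 falls. Reads carried no molecular identifiers, so limits from counts cover counting error only. Promoter sequences are from RefSeq.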

Additional observations from a re-analysis of the deposited data

How the results depend on the processing

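Of the 13 called members, 7 were called under every alternative that tested them, and the other 6 were lost only with the GC correction. WNT7A and WNT10B, which are among the 7, were not tested with a minimum of 10 in both groups. That correction gave 3 higher and 4 lower members, 513 and 398 genes in all, 1 higher gene of the other pathway lists and a median of 0.045 over the members. It reversed AXIN1 (0.064), AXIN2 (0.290), LEF1 (0.023), DVL3 (0.322), LRP5 (0.303), FZD7 (0.194), FZD9 (0.145), TCF7L1 (0.026) and WNT3 (0.010). The cause was not tested. RSPO4 was called as well with a pseudocount of 0.1, quantile normalization, edgeR, DESeq2 and voom, which made 8 lower members. With no minimum the median was -0.045 and with a minimum of 1 it was -0.088. In both of these settings RSPO3 (3.22) and WNT6 (-2.52) were called as well, and with no minimum also LGR5 (1.95) and SFRP2 (1.78). These members have low counts and almost no reads in 1 group. A minimum in both groups, added after seeing the data, gave -0.148. By the adjusted p alone there were 12 higher and 12 lower members, 3693 and 3828 genes in all, and 15 and 17 genes of the other lists; more genes pass by construction. Leaving out 1 library at a time gave 777 to 1512 lower genes, the most without Ctrl replicate 3, and the median of the members ran from -0.208 to -0.095, the highest without NE replicate 1. AXIN2 ran from -0.417 to 0.140 and LEF1 from -0.143 to 0.010, each reversed without Ctrl replicate 1 and without NE replicate 2. With a replicate block 6 members were higher and 7 lower. The correlation of deviations between same-numbered libraries was -0.163, 0.080 and -0.151, the numbers are therefore not taken as pairs, and the block changed no call of a named gene. Low members such as WNT7A and WNT10A are limited by their counts.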

Other observations

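Summed over each role on the FPKM scale, a sum chosen after the values were seen, the 15 listed WNT ligands had 17.9, 16.1 and 16.9 FPKM in Ctrl replicates 1 to 3 and 6.48, 7.77 and 8.61 in NE replicates 1 to 3. Without WNT5B the other 14 had 11.7, 10.7 and 9.76 FPKM in Ctrl and 5.16, 6.62 and 7.35 in NE libraries, so that the groups stayed apart. The DKK and SFRP antagonists together had 25.2, 26.9 and 28.7 FPKM in Ctrl and 106.1, 124.2 and 128.7 in NE libraries. In Ctrl the antagonist and ligand sums were thus within 2-fold of each other, and with NE the antagonists were more than 10-fold above the ligands. With NE, DKK1 and SFRP1 gave 74.0 and 40.1 FPKM of the mean antagonist sum of 119.6. Without DKK3 the antagonists had 19.8, 21.2 and 22.9 FPKM in Ctrl and 100.8, 118.7 and 123.7 in NE libraries. The 9 Frizzled receptors had 37.7, 38.8 and 50.3 FPKM in Ctrl and 48.1, 49.8 and 50.9 in NE libraries, and Ctrl replicate 3 lay within the NE range. These sums weigh transcripts, not proteins, and no test was made on them. They were not corrected for GC content, whose median over the exons was 58.5% for the ligands and 45.4% for the antagonists.

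The called members differed in where Ctrl replicate 3 lay on the log2 scale between the mean of Ctrl replicates 1 and 2 and the mean of the NE libraries. It was 43.4% of the way for DVL1 and 42.1% for LGR4, but 3.66% for DKK1, 6.30% for SFRP1 and -10.6% for WNT5B, where a negative value lies on the side away from NE. The part of the GC content of these genes in that difference was not tested beyond the correction.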
